A study of Mus musculus with 8 samples.

Results

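Tnf, its receptors Tnfrsf1a and Tnfrsf1b, and the TNF-induced genes Tnfaip2 and Tnfaip3 (A20) were followed through the RNA-seq of 8 macrophage samples. These 5 genes were taken by symbol from the 21080 symbols of the deposited tables, not by their values, and all 5 were measured in every sample. The samples were bone marrow-derived macrophages (BMDMs), differentiated in culture, of C57BL/6 mice. WT mice were sex-matched littermates that carried LysM-Cre, and Nudt21-cKO mice carried Nudt21 fl/fl with LysM-Cre, so that both genotypes shared the Cre. In Nudt21-cKO mice the recombinase, which is expressed in myeloid cells, removes exons 2 to 3 of Nudt21, a subunit of the complex that chooses where mRNAs are cleaved and polyadenylated. The 4 groups were WT at 0 h (replicates 1 and 2), Nudt21-cKO at 0 h (replicates 3 and 4), WT at 4 h (replicates 1 and 2) and Nudt21-cKO at 4 h (replicates 3 and 4). The 4 h groups had received IFNγ at 50 ng/ml overnight and then LPS at 50 ng/ml for 4 h. The 0 h groups were taken as unstimulated from their titles, although another label lists the stimulation for them too. Each sample pooled the BMDMs of 2 mice, so p-values describe the spread between 2 pools per group.

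TNF is made as a membrane-bound trimer and released by the protease ADAM17. Of its receptors, TNFR1 (Tnfrsf1a) carries a death domain and is found on most cells, whereas TNFR2 (Tnfrsf1b) lacks that domain and is most prominent on blood and immune cells. Binding leads to NF-κB activity, which in macrophages is also switched on by LPS, and A20 (Tnfaip3) is a ubiquitin-editing enzyme that is induced by NF-κB and limits it.

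Each value is the average read coverage per base over a gene, not scaled between samples. Summed over all genes, coverage ran from 14950347 to 17954882 per sample. The median over genes was 33.0 to 36.4 at 0 h and 10.4 to 14.7 at 4 h. Fold changes were therefore fitted on log2 values centred by sample median, and those on the deposited scale are given beside them. Nudt21 had coverage of 718 and 641 in WT against 158 and 172 in Nudt21-cKO at 0 h, and 547 and 575 against 142 and 115 at 4 h. Nudt21 was thus lower in Nudt21-cKO by a log2 fold change of -2.13 in unstimulated cells (limma, Benjamini-Hochberg adjusted p = 0.0355) and of -2.47 after stimulation (adjusted p = 0.0441). The 8 macrophage marker genes were all present, with a summed coverage of 122894 to 135214 at 0 h and 56814 to 69270 at 4 h. Summed coverage of 4 T cell markers reached 198, nearly all from Cd4, with Cd3e at 0 in 7 of the 8 samples, that of 3 B cell markers 4.36, that of 4 dendritic cell markers 67.2, and that of 5 neutrophil markers lay between 5308 and 10922, most of it from S100a8. In a bulk sample, fewer cells of a type and less RNA per cell cannot be told apart.

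The genes lie on 5 chromosomes (RefSeq, GRCm38.p6). Tnf spans chr17:35199367-35202007 and Tnfrsf1b chr4:145212368-145246870, both on the minus strand. Tnfrsf1a spans chr6:125349723-125362483 and Tnfaip2 chr12:111442450-111455018, both on the plus strand. Tnfaip3 spans chr10:19000910-19015410 on the minus strand. All 5 are protein-coding. To show the sequence from which each gene is transcribed, RefSeq windows from 250 bases before to 50 bases after each start site were searched for 4 motifs. These were the NF-κB consensus, the AP-1 heptamer TGANTCA and the GC box GGGCGG on both strands, and the TATA box TATAAA on the strand of the gene. Of 32851 windows, 8.46% held the NF-κB consensus, 7.81% the AP-1 heptamer, 35.7% the GC box and 8.32% TATAAA. Selected matches, read 5′ to 3′ on the strand of the gene, have the motif in capitals.
Tnf TATA box: ttccccaagggcTATAAAggcggccgtctg
Tnfaip3 NF-κB, nearer: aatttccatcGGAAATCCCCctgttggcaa
Tnfaip3 NF-κB, farther: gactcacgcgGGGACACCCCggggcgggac
Tnfaip2 NF-κB: gactattttaGGAGGGCCCCtccagggtcg
The TATA box of Tnf began 29 bases before its start site and lay within chr17:35202019-35202048. The NF-κB matches of Tnfaip3 began 12 and 125 bases before its start site (chr10:19015403-19015432 and chr10:19015516-19015545), and an AP-1 heptamer 136 bases before it overlapped neither. Its window also held TATAAA 225 bases before the start site. A window at a further RefSeq start site within Tnfaip3 (chr10:19011914-19012213) held 0 matches of each motif. The NF-κB match of Tnfaip2 began 24 bases before its start site (chr12:111442627-111442656). In these windows no NF-κB consensus match was found for Tnf, Tnfrsf1a or Tnfrsf1b, which says only that these letters are not there.

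The 3′ ends were described because NUDT21 binds UGUA in RNA and because AU-rich elements mark cytokine mRNAs for decay. In GENCODE M21 transcripts on GRCm38, the 3′UTR of Tnf was 764 bases long and held 3 UGUA and 8 AUUUA, or 10.5 AUUUA per kb against a median of 1.22 over 15565 genes. That of Tnfrsf1a was 490 bases long and held 7 UGUA, or 14.3 per kb against a median of 4.98, with 0 AUUUA. Those of Tnfrsf1b (2324 bases, 11 UGUA, 2 AUUUA) and Tnfaip2 (1456 bases, 8 UGUA, 2 AUUUA) were longer. Their UGUA per kb, 4.73 and 5.49, lay near the median, and that of Tnf was 3.93. UGUA occurred in 86.7% of all 3′UTRs, AUUUA in 66.5% and the AU-rich nonamer UUAUUUAUU in 7.48%. The nonamer was found 5 times in Tnf, and the stretch printed here holds 4 complete copies, which overlap, with the bases of all copies in capitals.
Tnf nonamers: uaUUAUUUAUUAUUUAUUUAUUAUUUAUUU
This stretch of Tnf lies at chr17:35199680-35199709. The coverage gives 1 value for a whole gene and does not measure which 3′ end was used.

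IFNγ/LPS turned Tnf from the gene of lowest coverage among the 5 into one of the most abundant transcripts of all. Unstimulated WT samples had coverage of 205 and 165, and unstimulated Nudt21-cKO samples 234 and 305. After stimulation WT reached 207348 and 155252, and Nudt21-cKO 209719 and 236747. Every 4 h sample was far above every 0 h sample. Tnf ranked between 6650th and 7919th of the 21080 genes at 0 h and between 4th and 8th at 4 h, when it took 1.04 to 1.33% of all summed coverage, against 0.00104 to 0.00172% before. The log2 fold change on the centred scale was 11.38 in WT (standard error 0.31, adjusted p = 0.0025, limma with Benjamini-Hochberg adjustment) and 10.91 in Nudt21-cKO (standard error 0.16, adjusted p = 0.000852). On the deposited scale it was 9.93 and 9.70. The centred value was the 41st highest of 16002 genes tested in WT and the 65th highest of 16223 in Nudt21-cKO.

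**Figure D1:**
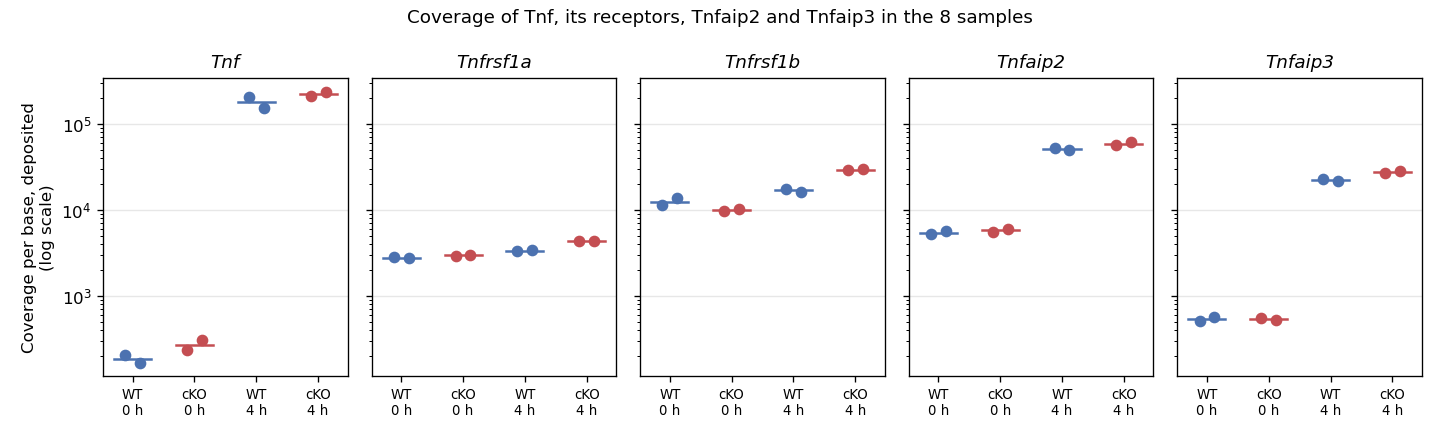
Coverage per base (log axis, deposited scale) of each gene in the 2 samples of each group, with the group mean as a line; blue is WT and red Nudt21-cKO. Tnf, Tnfaip2 and Tnfaip3 stand far higher at 4 h, the receptors move less, and Tnfrsf1b in Nudt21-cKO is the lowest group at 0 h and the highest at 4 h.

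Tnfaip3, the A20 gene, rose from 506 and 563 in WT and 553 and 518 in Nudt21-cKO to 22920 and 21463 in WT and 27010 and 28312 in Nudt21-cKO. The genotypes overlapped at 0 h, and at 4 h both Nudt21-cKO samples were the higher ones. The log2 fold change of stimulation was 6.83 in WT (standard error 0.20, adjusted p = 0.0025 by limma) and 6.89 in Nudt21-cKO (standard error 0.11, adjusted p = 0.000858), or 5.38 and 5.69 on the deposited scale. Tnfaip2, a TNF-induced gene whose protein is linked to membrane protrusions and tunnelling nanotubes, started about an order of magnitude higher. Its coverage was 5274 and 5636 in WT and 5542 and 6002 in Nudt21-cKO at 0 h. Stimulated WT samples had 52975 and 49987, and stimulated Nudt21-cKO samples 57318 and 61168. Its log2 fold change was 4.69 in WT (standard error 0.19, adjusted p = 0.00275 by limma) and 4.56 in Nudt21-cKO (standard error 0.09, adjusted p = 0.000921), or 3.24 and 3.36 on the deposited scale.

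The receptors changed much less. Whether they were called depended on the scale for Tnfrsf1a in both genotypes and for Tnfrsf1b in WT, but not for Tnfrsf1b in Nudt21-cKO. Tnfrsf1a, the TNFR1 gene, had coverage of 2793 and 2747 in WT and 2888 and 3024 in Nudt21-cKO at 0 h. It had 3323 and 3389 in WT and 4349 and 4402 in Nudt21-cKO at 4 h. The 2 samples of each group lay close together, and on the deposited scale the Nudt21-cKO samples were the higher ones at both times. The log2 fold change of stimulation was 1.73 in WT (standard error 0.15, adjusted p = 0.00691 by limma) and 1.77 in Nudt21-cKO (standard error 0.07, adjusted p = 0.00175) on the centred scale. On the deposited scale it was 0.28 in WT (adjusted p = 0.132) and 0.57 in Nudt21-cKO (adjusted p = 0.0126), below a fold of 1.5 in both. Over all 13 alternatives in WT it ranged from 0.18 to 1.86, with adjusted p from 0.000126 to 0.286.

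Tnfrsf1b, the TNFR2 gene, had coverage of 11319 and 13591 in WT and 9717 and 10169 in Nudt21-cKO at 0 h. After stimulation WT had 17660 and 16235, and Nudt21-cKO 28840 and 29850. The Nudt21-cKO samples were thus both below WT at 0 h and both above WT at 4 h. The log2 fold change of stimulation was 2.77 in Nudt21-cKO (standard error 0.08, adjusted p = 0.00116 by limma) and 1.56 on the deposited scale, called on both. In WT it was 1.90 (standard error 0.22, adjusted p = 0.011) on the centred scale and 0.45 (adjusted p = 0.0964) on the deposited scale, where it was not called. In WT the value ranged from 0.25 to 2.08 over 13 alternatives, with adjusted p from 0.000436 to 0.302.

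In all, 5 of the 5 genes were called higher after stimulation in each genotype on the centred scale (fold above 1.5 and adjusted p under 0.05), where 30.9% of genes in WT and 31.6% in Nudt21-cKO were called higher. On the deposited scale 3 genes were called in WT (Tnf, Tnfaip2 and Tnfaip3) and 4 in Nudt21-cKO (Tnfrsf1b in addition), where 11.3% and 13.3% of genes were called higher. The median gene changed by -1.27 in WT and -1.05 in Nudt21-cKO on that scale, so that a gene at constant coverage counts as higher relative to the median gene. Scaling to equal totals also left 3 calls in WT and 4 in Nudt21-cKO, where 11.5% and 13% of genes were called higher, as did quantile normalization, where 19.8% and 21% were. In WT, 3 genes (Tnf, Tnfaip2 and Tnfaip3) were called when WT 0 h replicate 1 or replicate 2 was left out, against 13.4% and 14.1% of all genes called higher.

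**Figure D2:**
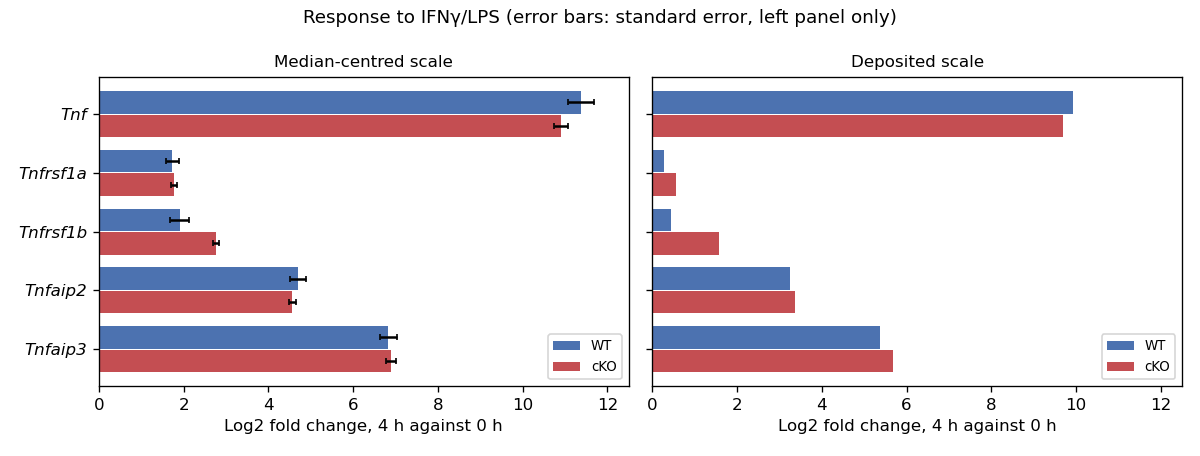
Log2 fold change of 4 h against 0 h for each gene in WT (blue) and Nudt21-cKO (red), on the centred scale with standard errors (left) and on the deposited scale (right). Tnf (11.38 and 10.91) and Tnfaip3 (6.83 and 6.89) lead on both scales, and the bars of Tnfrsf1a shrink to 0.28 and 0.57 on the deposited scale.

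The order of the 5 genes by coverage per base also changed with stimulation. At 0 h it was Tnfrsf1b, Tnfaip2, Tnfrsf1a, Tnfaip3 and Tnf, from high to low, in both genotypes. At 4 h it was Tnf, Tnfaip2, Tnfaip3, Tnfrsf1b and Tnfrsf1a in WT. In Nudt21-cKO at 4 h Tnfrsf1b stood ahead of Tnfaip3, by a ratio of means of 1.06. In each group no sample of one gene overlapped a sample of its neighbour in that order. At 4 h Tnfaip2 ranked 30th to 35th of all genes, Tnfrsf1b 78th to 124th, Tnfaip3 84th to 89th and Tnfrsf1a 670th to 738th.

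The comparison of genotypes asks whether loss of Nudt21 changes the TNF axis before or after activation. The call rule, from the study's methods, was a fold above 1.5 with an unadjusted p under 0.05. With it, 0 of the 5 genes were called at 0 h, when 14.2% of 16251 genes were, and 0 of 5 at 4 h, when 20.3% of 14950 genes were. With an adjusted p under 0.05, which 1.08% and 1.58% of genes met, there were also 0, and 0 members had an unadjusted p under 0.05 at either time, a level that 22.8% of all genes reached at 0 h and 28.6% at 4 h. The smallest p that an exact permutation of 2 and 2 samples allows for 1 gene is 0.333 (two-sided).

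At 0 h the largest difference was that of Tnf, with both Nudt21-cKO samples above both WT samples and a log2 fold change of 0.45 (95% interval -0.14 to 1.03, adjusted p = 0.296 by limma). It was positive in all 12 alternatives, between 0.30 and 0.59. For Tnfrsf1b the log2 fold change was -0.41 (95% interval -0.86 to 0.04, unadjusted p = 0.062, adjusted p = 0.242 by limma), and it was negative in all 12 alternatives. Tnfrsf1a had 0.00 (95% interval -0.26 to 0.26), Tnfaip2 -0.01 (-0.31 to 0.29) and Tnfaip3 -0.09 (-0.51 to 0.34). After centring, the genotypes did not overlap for 2 of the 5 genes, Tnf and Tnfrsf1b, against 58.7% of all genes.

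At 4 h Tnf did not differ detectably between genotypes, and its interval was wide. Centred to a common median, its coverage was 252566 and 160964 in WT and 186068 and 211292 in Nudt21-cKO. The Nudt21-cKO samples lay between the WT samples. The log2 fold change was -0.02 (95% interval -0.92 to 0.88, adjusted p = 0.966 by limma), and on the deposited scale it was 0.31. Leaving out WT 4 h replicate 1 gave 0.30, and leaving out WT 4 h replicate 2 gave -0.35. Tnfaip3 had -0.02 (95% interval -0.54 to 0.50, adjusted p = 0.954), Tnfaip2 -0.13 (-0.65 to 0.38, adjusted p = 0.624) and Tnfrsf1a 0.05 (-0.36 to 0.45, adjusted p = 0.835). A p that misses the threshold does not show that these levels were alike.

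On the deposited scale the Nudt21-cKO samples were above both WT samples for 5 of the 5 genes at 4 h, as were 51.1% of all genes. The median gene was 0.31 higher in Nudt21-cKO on that scale at 4 h and 0.10 higher at 0 h. Relative to that shift, Tnf (0.31), Tnfaip3 (0.32) and Tnfrsf1a (0.38) stood near the median gene, Tnfaip2 (0.20) below it and Tnfrsf1b (0.79) above it.

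Tnfrsf1b was the 1 member with a separate pattern at 4 h. On the centred scale its coverage was 21511 and 16833 in WT and 25588 and 26640 in Nudt21-cKO. It was the only member whose genotypes did not overlap there, against 64% of all genes. The log2 fold change was 0.46 (95% interval -0.09 to 1.001, unadjusted p = 0.0765, adjusted p = 0.218 by limma), a fold of 1.37, and it was not called. On the deposited scale it was 0.79 and was called (adjusted p = 0.0612), where 20.8% of genes were called higher. It was also called when WT 4 h replicate 1 was left out (0.64), a setting in which 12.6% of genes were called higher. It was positive in all 12 alternatives, between 0.28 and 0.79, with adjusted p from 0.0612 to 0.599.

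**Figure D3:**
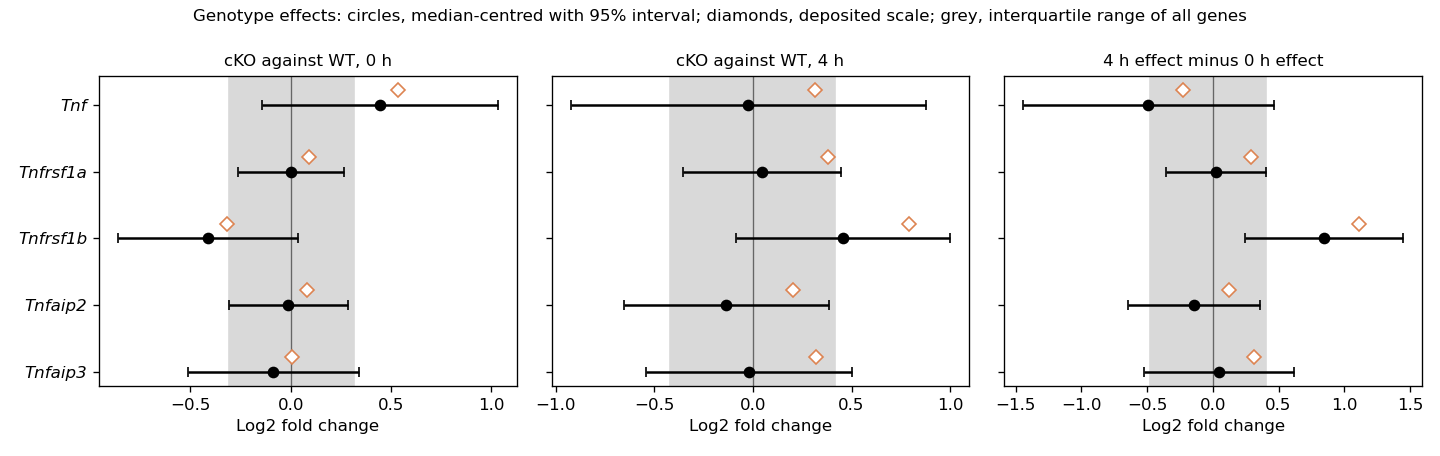
Log2 fold change of Nudt21-cKO against WT at 0 h and at 4 h, and the 4 h effect minus the 0 h effect. Black circles with 95% intervals are the centred values, open diamonds the deposited scale, and the grey band the interquartile range of all genes; Tnfrsf1b moves from -0.41 at 0 h to 0.46 at 4 h, and its difference of 0.85 is the one interval that leaves out 0.

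Whether the genotype effect changed with stimulation was tested with an interaction term on all 8 samples. For Tnfrsf1b it was 0.85 on the log2 scale (standard error 0.23, 95% interval 0.25 to 1.45), with an unadjusted p of 0.0149 and an adjusted p of 0.134 by limma. An unadjusted p under 0.05 was reached by 21.6% of 16284 genes, and an adjusted p under 0.05 by 2.12%, among them 0 of the 5. On the deposited scale the value was 1.11 with an adjusted p of 0.0487, where 2.28% of genes were called higher. It was positive in all 16 alternatives, from 0.66 to 1.11, with adjusted p from 0.0487 to 0.321. Tnf had -0.49 (95% interval -1.44 to 0.46, adjusted p = 0.499), Tnfaip2 -0.14 (adjusted p = 0.712), Tnfaip3 0.05 (adjusted p = 0.929) and Tnfrsf1a 0.02 (adjusted p = 0.947).

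The ratio of the receptors within a sample needs no scaling between samples. Coverage of Tnfrsf1b over that of Tnfrsf1a was 4.05 and 4.95 in WT and 3.36 and 3.36 in Nudt21-cKO at 0 h. At 4 h it was 5.31 and 4.79 in WT and 6.63 and 6.78 in Nudt21-cKO. Both Nudt21-cKO samples were below WT at 0 h and above WT at 4 h, and the order of the genotypes in the ratio did not depend on the scale. The ratio reuses the same Tnfrsf1b coverage, so it is a description and no separate support for the interaction. The WT samples overlapped between the times, and those of Nudt21-cKO did not. Coverage of Tnf over that of Tnfaip3 was 0.406 and 0.294 in WT and 0.424 and 0.589 in Nudt21-cKO at 0 h. At 4 h it was 9.05 and 7.23 in WT and 7.76 and 8.36 in Nudt21-cKO, and there the genotypes overlapped.

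**Figure D4:**
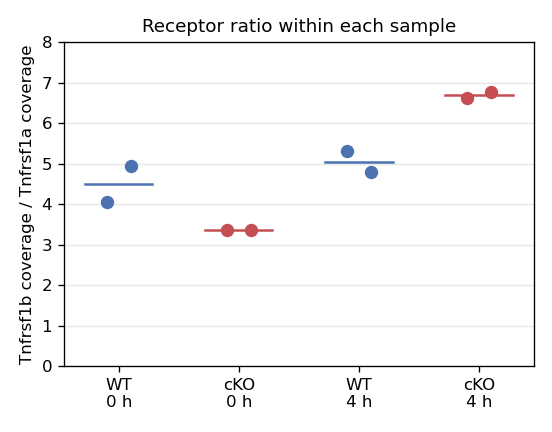
Coverage of Tnfrsf1b divided by that of Tnfrsf1a within each sample (linear axis from 0), with group means as lines. Nudt21-cKO samples (red) are the lowest at 0 h (3.36 and 3.36) and the highest at 4 h (6.63 and 6.78), on either side of WT (blue).

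The macrophage markers differed between the genotypes in both directions. Of the 8, 1 was called higher and 3 lower in Nudt21-cKO at 0 h, when 7.25% and 6.98% of all genes were, and likewise 1 and 3 at 4 h, when 10.4% and 9.9% of all genes were. Cd68 was the one called higher, with coverage of 45504 and 42908 in WT against 69414 and 73397 in Nudt21-cKO at 0 h, and 12362 and 13101 against 24827 and 28817 at 4 h. Those called lower at 0 h were Csf1r (log2 fold change -0.65), Adgre1 (-0.75) and Fcgr1 (-0.99), and at 4 h Adgre1 (-0.80), Fcgr1 (-0.63) and Spi1 (-0.78). Lyz2 (0.69 and 0.48), Itgam (-0.33 and -0.45) and Mertk (-0.14 and 0.18) were not called at either time. On unscaled values Cd68 was called higher at both times and Lyz2 at 4 h, the lower calls of Adgre1 and Fcgr1 at 0 h held, and those of Csf1r at 0 h and of all 3 genes at 4 h were lost. Of the 5 neutrophil markers, 0 were called at 0 h and 1 (Mpo) was called lower at 4 h. On unscaled values that call was lost, and 1 was called higher and 0 lower at 4 h, beside 20.8% and 4.17% of all genes. Of the 4 dendritic cell markers, 1 was called higher (Zbtb46, 6.59 and 7.08 in WT against 16.6 and 23.9 in Nudt21-cKO) and 1 lower (Xcr1, 17.5 and 52.4 against 4.64 and 2.32) at 4 h, and 0 of 3 tested at 0 h. Of the T and B cell markers tested 0 were called at either time. Their part in the values of Tnfrsf1b was not tested.

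Across the 8 samples the centred log2 profiles of Tnf, Tnfrsf1a, Tnfaip2 and Tnfaip3 were nearly the same, with Pearson r from 0.9985 to 0.9996 among them, and 994 to 1066 of 15271 other genes had r above 0.99 with each. These r describe mainly the split between 0 h and 4 h, which all points share. The profile of Tnfrsf1b had r of 0.975 to 0.983 with the others, and 138 genes had r above 0.99 with it. The 3 genes most like Tnf were Gbp5, Tgtp2 and Ptgs2, and the 3 most like Tnfrsf1a were Trafd1, Nmi and Gm609. Gnaq, Rnf10 and Endod1 were the 3 most like Tnfrsf1b, with r of 0.9996, 0.998 and 0.997. Gnaq had coverage of 1540 and 1703 in WT and 1472 and 1535 in Nudt21-cKO at 0 h, whereas by 4 h WT had 1232 and 1290, and Nudt21-cKO 1905 and 1979. Abtb2, Tnip1 and Ptgs2os were most like Tnfaip2, and Gm45827, Gm14963 and Phf11b most like Tnfaip3.

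The rest of the pathway was followed through 7 lists with 96 genes, of which 95 were in the tables. After stimulation 62 of 91 tested were called higher and 9 lower in WT, and 60 and 11 of 92 in Nudt21-cKO. Over all genes 30.9% were called higher and 19.4% lower in WT, and 31.6% and 21.5% in Nudt21-cKO. Without centring, the counts were 38 higher and 28 lower in WT (all genes 11.3% and 52.3%), and 40 and 28 in Nudt21-cKO (13.3% and 51.5%). Between the genotypes, 5 were called higher and 6 lower of 86 at 0 h, when 7.25% and 6.98% of all genes were. With 8 higher and 11 lower of 93 at 4 h, the shares of all genes were 10.4% and 9.9%. At 0 h the adjusted p of the called genes lay between 0.0643 and 0.199. At 4 h it lay between 0.068 and 0.169 for 18 genes. The other, Tnfrsf25, had 0.024 by limma, with both WT samples listed at 0. It passed the coverage filter only through Nudt21-cKO, so its p rests on values at the floor. The balance between higher and lower calls depended on the scale. Without centring, 18 were called higher and 2 lower at 4 h, against 20.8% and 4.17% of all genes. All 8 higher calls were kept, 10 were gained (Litaf, Tnfsf10, Tnfsf12, Tnfrsf21, Tradd, Traf3, Traf6, Fadd, Mlkl and Bid), and the remaining lower calls were Map3k5 and Tnfaip8. At 0 h it gave 7 higher and 4 lower, against 8.99% and 5.61% of all genes, with Tnfsf13 and Tnfrsf23 gained as higher and the lower calls of Ripk3 and Tab1 lost. In the interaction 0 of 93 were called.

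Among the 9 genes of TNF release and shedding, 3 were called higher and 3 lower by stimulation in WT, and 4 and 2 in Nudt21-cKO, beside the shares of all genes (30.9% and 19.4% in WT, 31.6% and 21.5% in Nudt21-cKO). Without centring, 2 were called higher and 5 lower in each genotype, beside 11.3% and 52.3% of all genes in WT, and 13.3% and 51.5% in Nudt21-cKO. Rhbdf2, which carries ADAM17 to the cell surface, had a log2 fold change of 3.86 in WT and 3.98 in Nudt21-cKO, and Sppl2a, a protease that cuts the stub left in the membrane, 2.90 and 2.80. Adam17 itself had coverage of 3815 and 4258 in WT and 3103 and 3458 in Nudt21-cKO at 0 h, and 3581 and 3536 against 3200 and 3232 at 4 h. It was not called between genotypes (-0.39 and -0.48). Rhbdf1, the paralogue of Rhbdf2, was called higher in Nudt21-cKO at 4 h, with coverage of 6.60 and 11.4 in WT against 23.0 and 22.3 (log2 fold change 1.04, standard error 0.24).

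Of the 10 other TNF superfamily ligands tested at 0 h, 1 was called higher and 2 lower in Nudt21-cKO, and of 14 at 4 h, 3 higher and 1 lower. All genes were called higher and lower at 7.25% and 6.98% at 0 h and at 10.4% and 9.9% at 4 h. Tnfsf15 (TL1A) was called higher at both times. Its coverage was 4.43 and 2.07 in WT against 10.1 and 10.97 in Nudt21-cKO at 0 h, and 3613 and 2904 against 7141 and 6895 at 4 h. Its stimulation effect of 11.46 in WT and 10.57 in Nudt21-cKO was of the size of that of Tnf. Tnfsf13 (APRIL) and Tnfsf13b (BAFF), which act on B cells, were called higher at 4 h, by 0.61 and 0.74. Coverage of Tnfsf13b was 98.7 and 120 in WT against 205 and 258 in Nudt21-cKO, and that of Tnfsf13 was 171 and 181 against 343 and 335. Tnfsf14 (LIGHT) was called lower at 4 h (-1.33). That call was lost on unscaled values, where 5 ligands were called higher and 0 lower, beside 20.8% and 4.17% of all genes. Lymphotoxin beta (Ltb, -1.40) and Tnfsf10 (TRAIL, -0.78) were called lower at 0 h. At 4 h Tnfsf10 had coverage of 508 and 537 in WT against 893 and 864 in Nudt21-cKO, a log2 fold change of 0.41 that was not called on the centred scale, and of 0.75 that was called higher on unscaled values (adjusted p = 0.061 by limma). Tnfsf4 (OX40 ligand) was listed at 0 in all 4 samples at 0 h and had 196 to 506 at 4 h.

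Among the other receptors of the superfamily, 1 was called higher and 1 lower of 18 at 0 h, and 1 higher and 3 lower of 20 at 4 h, beside the shares of all genes (7.25% and 6.98%, then 10.4% and 9.9%). Cd40 responded to stimulation by 10.48 in WT and 10.34 in Nudt21-cKO, reaching 62213 to 68092 in all 4 samples at 4 h. The death receptor Fas was called lower in Nudt21-cKO at 4 h, with coverage of 874 and 875 in WT against 623 and 564 (log2 fold change -0.90, standard error 0.15). Tnfrsf18 (GITR, -1.35) and Tnfrsf26 (-0.84) were also called lower at 4 h. Without centring, 0 of the 20 were called lower and 2 higher at 4 h, beside 4.17% and 20.8% of all genes. Tnfrsf13b (TACI) was called lower at 0 h (-0.90) and Tnfrsf10b, the mouse TRAIL receptor, higher (0.9999). Tnfrsf25 (DR3), the 1 called higher at 4 h, was listed at 0 in both WT samples then. Its 1.83 and 1.72 in Nudt21-cKO alone took it past the coverage filter. The call thus compares with 0, and no fold is given.

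Of the 24 genes of the receptor complex and its kinases, 6 were called lower and 1 higher at 4 h, against 9.9% and 10.4% of all genes. The median log2 fold change of the list was -0.06, beside -0.03 over all genes, and on unscaled values 1 of the 6 (Map3k5) was still called lower while 4 were called higher (Ikbkg, Tradd, Traf3 and Traf6), against 4.17% and 20.8% of all genes. Traf6 had 283 and 283 in WT against 428 and 462 in Nudt21-cKO, and the receptor adaptor Tradd 223 and 246 against 351 and 414. Ikbkg (NEMO), the regulatory subunit of the IκB kinase, was the one called higher, and was so at both times. Its coverage was 646 and 736 in WT against 1084 and 1291 in Nudt21-cKO at 0 h, and 218 and 232 against 614 and 641 at 4 h (log2 fold change 1.14, standard error 0.12). Those called lower were Birc2 (cIAP1, -0.62), Tab1 (-1.18), Chuk (IKKα, -0.60), Map3k14 (NIK, -0.73), Map3k5 (ASK1, -0.999) and Map3k8 (TPL2, -0.65). At 0 h Traf3 was called higher (218 and 283 in WT against 612 and 717 in Nudt21-cKO, log2 fold change 1.32) and Tab1 lower (-0.59). Traf1, an NF-κB target, responded to stimulation by 9.64 in WT and 9.72 in Nudt21-cKO, and Tank by 3.98 and 3.19.

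Of the 9 genes of the cell death arm, 7 were called higher after stimulation in WT and 6 in Nudt21-cKO, against 30.9% and 31.6% of all genes. On unscaled values 5 were called higher in each genotype, and 2 and 3 lower. The shares of all genes there were 11.3% higher and 52.3% lower in WT, and 13.3% and 51.5% in Nudt21-cKO. The caspase-8 inhibitor Cflar responded by 5.08 and 5.04, and the nucleic acid sensor Zbp1 by 7.23 and 7.74. Between genotypes 1 was called on the centred scale, lower at 0 h, when 6.98% of all genes were called lower: the necroptosis kinase Ripk3 (145 and 142 in WT against 104 and 99.8 in Nudt21-cKO, log2 fold change -0.59). That call was lost on unscaled values, where 3 of the 9 were called higher at 4 h, beside 20.8% of all genes. These were the adaptor Fadd (70.0 and 75.7 in WT against 137 and 130 in Nudt21-cKO), the BH3-only protein Bid (187 and 206 against 316 and 362) and the necroptosis effector Mlkl (1442 and 1406 against 2152 and 2266).

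Among the 11 partners of A20 and other deubiquitinases, 9 were called higher after stimulation in each genotype, against 30.9% of all genes in WT and 31.6% in Nudt21-cKO. On unscaled values 4 were called higher and 3 lower in WT (Itch, Rnf11 and Otulin), and 3 and 2 in Nudt21-cKO (Itch and Otulin lower), beside all-gene shares of 11.3% and 52.3%, then 13.3% and 51.5%. Tnip1, Tnip3 and Optn were called higher on both scales in both genotypes. Between genotypes 1 was called higher at 0 h and 2 at 4 h, against 7.25% and 10.4% of all genes. Tnip1 (ABIN-1) responded by 3.86 in WT and 3.83 in Nudt21-cKO, and Tnip3 by 5.38 and 5.45. Otud7b (Cezanne), a deubiquitinase of the A20 family, was called higher in Nudt21-cKO at both times. Its coverage was 171 and 164 in WT against 295 and 293 at 0 h (log2 fold change 0.72), and 108 and 157 against 341 and 341 at 4 h (1.05). Rnf11, part of the A20 complex, was called higher at 4 h (561 and 580 in WT against 1066 and 1230 in Nudt21-cKO, log2 fold change 0.67). Of the 6 other genes named as TNF-induced proteins, 1 of 5 tested was called lower at 0 h and 1 of 6 at 4 h, against 6.98% and 9.9% of all genes. Tnfaip8l1 was called lower at 0 h (-1.05) and Tnfaip8 at 4 h (-1.16, with 480 and 441 in WT against 280 and 242 in Nudt21-cKO). Tnfaip6, a hyaluronan-binding protein, went from at most 1.08 in any 0 h sample to between 25.4 and 49.98 at 4 h. Tnfaip8l3 and the receptor Tnfrsf13c were listed at 0 in every 0 h sample, and at 4 h had 0.98 to 7.48 and 0.62 to 3.53.

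**Figure D5:**
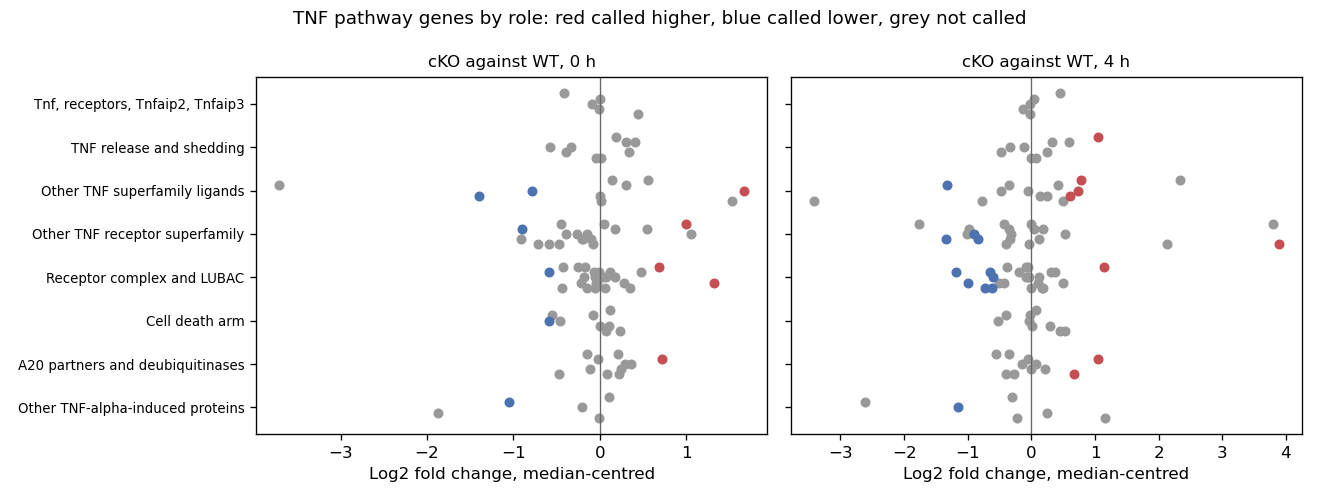
Log2 fold change of Nudt21-cKO against WT (centred scale) for each tested gene of the lists, by role, at 0 h and 4 h; red is called higher, blue called lower and grey not called. The top row holds Tnf, its receptors, Tnfaip2 and Tnfaip3, with 0 calls, and the 6 lower calls in the receptor complex at 4 h stand left of 0.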

How the data were processed

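The labels' processing notes name HISAT2 2.2.1 and StringTie 2.1.7 on mm10/GRCm38. The authors deposited 1 table per time with a coverage signal per gene and sample, not scaled between samples. The unit is not named there and was read from the values: of 1315 low values of genes with 1 exon, 23.3% gave whole bases (tolerance 0.02; 4.0% if uniform). Read numbers per gene are unknown, so counting intervals could not be had. The tables also hold the authors' fold changes, p-values and classes, which were not used. The tables held 0 unused columns of per-sample values.

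Log2(coverage + 0.1) of genes with a mean of at least 0.5 was fitted with limma 3.58.1 (R 4.3.3) after median-centring of each sample, with Benjamini-Hochberg adjustment over all genes. The deposited scale was an alternative, because summed coverage was higher in Nudt21-cKO than in WT at each time and the median fell at 4 h. Whether sequencing depth differed between the genotypes was not tested. The fold change understates that of low genes. On simulated data with a log2 change of 2, 86.5% of changed genes were recovered in the 0 h comparison (15571 genes) and 87.5% in that at 4 h (14247 genes). With an adjusted p, these were 37.5% and 41.7%. Unchanged genes called falsely, 211 higher and 252 lower at 0 h and 223 and 201 at 4 h, outnumbered the 192 changed genes tested. For stimulation, simulated with 7679 of 15388 genes changed in WT and 7768 of 15500 in Nudt21-cKO, 79.8% and 84.4% were recovered, and centring left unchanged genes at a median log2 fold change of 0.24 and 0.29. Other alternatives covered total and quantile scaling, the pseudocount (1), the filter (none, or 5), an intensity trend, all 8 samples in 1 fit, a replicate block and each sample left out.

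The 5 genes and the lists were chosen with earlier results of these data known. Named beside them were Nudt21, every list gene called between genotypes on the centred scale and the 3 genes of highest r. From each list the 2 genes with the largest absolute stimulation effect in WT were also named. Outside these rules fall Adam17, Optn, Itch, Otulin, the single marker genes and the list genes called between genotypes only on the deposited scale. They were named after their values were seen. Promoter windows came from RefSeq (GRCm38.p6), where each of the 5 genes matched by symbol, and 3′UTRs of 4 of them from GENCODE M21, with that of Tnfaip3 not reported here. Protein sequences were not used here.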

Additional observations from a re-analysis of the deposited data

Results flagged for a closer look

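The genotype effect on Tnfrsf1b differed between the times by 0.85 on the log2 scale (0.847, interaction term, standard error 0.23, adjusted p = 0.134 by limma with Benjamini-Hochberg adjustment). It drew attention because both Nudt21-cKO samples were below both WT samples at 0 h and both were above them at 4 h. Its unadjusted p was 0.0149, and 21.6% of all genes had an unadjusted p under 0.05 in this comparison. After centring, the genotypes did not overlap, in either direction, for 58.7% of all genes at 0 h and 64% at 4 h. The share of genes that crossed in this way was not counted. No cause was tested.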

How the results depend on the processing

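The stimulation calls of Tnf, Tnfaip2 and Tnfaip3 held in all 13 alternatives in each genotype. The small genotype differences had no stable sign, and the cause was not tested. At 0 h Tnfaip2 turned to 0.0812 and Tnfaip3 to 0.0058 on the deposited scale, Tnfaip2 to 0.0099 without a filter, and Tnfrsf1a to -0.0291 with equal totals, -0.0304 with quantile normalization and -0.0086 with a mean of at least 5. At 4 h, on the deposited scale, with equal totals and with quantile normalization, Tnf turned to 0.31, 0.10 and 0.23 and Tnfaip3 to 0.32, 0.107 and 0.0368, and Tnfaip2 turned to 0.20 on the deposited scale. The interaction of Tnfaip2 turned to 0.12 on the deposited scale and 0.0323 with equal totals. With samples left out one at a time, the 0 h values ran from -0.0211 to 0.0187 for Tnfrsf1a, -0.071 to 0.0468 for Tnfaip2 and -0.189 to 0.0114 for Tnfaip3. The 4 h values ran from -0.35 to 0.30 for Tnf, -0.0549 to 0.151 for Tnfrsf1a, -0.291 to 0.0266 for Tnfaip2 and -0.18 to 0.15 for Tnfaip3. The interactions ran from -0.0846 to 0.128 for Tnfrsf1a, -0.309 to 0.0163 for Tnfaip2 and -0.12 to 0.21 for Tnfaip3.

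Genes with adjusted p under 0.05 numbered 176 at 0 h and 81 with pseudocount 1, 554 with a mean of at least 5, 1901 with an intensity trend and 890 with all 8 samples in 1 fit. At 4 h they numbered 236, and 577 on the deposited scale, 109 without a filter, 1809 with a mean of at least 5, 2817 with a trend and 3075 in 1 fit. They ran from 0 to 0 at both times with a sample left out, when 2023 to 2538 genes at 0 h and 1777 to 3508 at 4 h had a fold above 1.5 with an unadjusted p under 0.05. Pathway genes called then ran from 7 to 11 at 0 h, 4 to 21 at 4 h (4 without cKO 4 h replicate 4), 43 to 59 in WT stimulation and 0 to 2 in the interaction. Members called ran from 0 to 1 at 4 h and 3 to 5 in WT stimulation, with 1 at 4 h on the deposited scale and 3 in WT on the deposited, equal-total and quantile scales. Genes called by stimulation in WT ran from 3576 to 5961, against 8056. The interaction called 165 to 490 genes with a sample left out, against 346. It called 1 member and 2 pathway genes on the deposited scale, 588 genes (3 pathway) with a mean of at least 5, and 1157 (10 pathway) with a trend.

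Scaling moved the share of called genes that were higher: from 50.9% to 61.6% at 0 h on the deposited scale, from 51.2% to 83.3% (deposited) and 65.7% (equal totals) at 4 h, and from 50.3% to 75% and 70.4% in the interaction. In WT stimulation it moved from 61.4% to 17.8% (deposited), 18.6% (equal totals) and 44.1% (quantile), and in Nudt21-cKO from 59.6% to 20.6%, 19.8% and 41.9%. A trend moved it to 38% in the interaction. Same-numbered samples did not deviate together (r 0.0204 in WT and 0.0237 in Nudt21-cKO). With the replicate block, stimulation called 5452 genes in WT and 7603 in Nudt21-cKO, 5 of 5 members in each, and the interaction called 0 by limma, with 2872 at an unadjusted p under 0.05. A lone sample was assumed to vary like the other groups.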
